A study of Bos taurus with 22 samples.

Results

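BMP7, DLK1 and ACVR1C are 3 of the 24616 genes counted by RNA-Seq in subcutaneous backfat of 22 steers, and were chosen by name as signals that act on fat cell formation (BMP7 is ENSBTAG00000015362, DLK1 is ENSBTAG00000037899 and ACVR1C is ENSBTAG00000019337). The steers were Angus (ANG, 4 H-RFI and 4 L-RFI), Charolais (CHAR, 3 and 3) and Kinsella Composite (KC, labelled a Hereford by Angus crossbred, 4 and 4), all fed 1 finishing diet and sampled after slaughter. The paper states that KC sires were Angus, Charolais or Alberta Composite, on a dam line of Hereford, Angus and Holstein descent. KC steers may therefore share ancestry with both other breeds. RFIfat is the feed a steer ate beyond what its growth and backfat predict, in kg, so H-RFI steers (0.54 to 2.03 kg) are the less efficient and L-RFI steers (-1.77 to -0.75 kg) the more efficient ones. The question was whether the level of each gene differed between RFI groups within a breed, and between breeds. The steers sequenced were the extremes of RFIfat in their breed whose RNA was of sufficient quality, and neither their ages nor their birth years are in the labels.

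BMP7 (bone morphogenetic protein 7) is a secreted ligand of the TGF-beta superfamily that can promote fat cell formation and the brown or beige, heat-producing state. DLK1 (also called preadipocyte factor) is a surface protein of preadipocytes that holds back their differentiation and is lost as they mature, and it comes from an imprinted gene cluster. ACVR1C (ALK7) is a type I receptor for activins, nodal and growth differentiation factors of the same superfamily, is abundant in mature fat cells, and lowers lipolysis when it is active.

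The gene counts of a steer summed to between 8033008 and 12426133, and levels are given as CPM (the counts of a gene relative to the library's total, the unit in which the study set its limit of expression) after TMM scaling over all steers. At this depth 3 counts correspond to 0.241 to 0.379 CPM, and such floors cover counting error only. The labels call the cells adipocytes, but the symbols at hand cover none of the 12 mature adipocyte, 6 endothelial or 7 immune markers listed for this work, so that the label could not be checked against its own markers. Of 8 skeletal muscle markers 2 could be read, TTN and NEB. Their summed level was 55.6 to 276 CPM in all steers but 1, the KC L-RFI steer F11 at 2563. Of 7 smooth muscle markers 2 could be read, ACTA2 and ACTG2, whose sum lay between 63.3 and 120.8 CPM in CHAR H-RFI and between 164.6 and 376 in CHAR L-RFI steers. None of these 4 genes was at 0 in any steer, and in whole tissue fewer cells of a type and less RNA per cell cannot be told apart. In 6 libraries (F8, F10 and F14 of KC, and F18, F25 and F28 of ANG) 0.303 to 0.512% of reads were assigned to more than 1 gene, against 0.938 to 2.16% in the other 16, and no label accounts for it.

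BMP7 was measured in every steer, with 13 to 207 counts. In ANG H-RFI steers its level was 21.6 CPM in F20, 12.2 in F21, 10.96 in F28 and 14.1 in F32. In ANG L-RFI steers it was 3.79 in F18, 7.04 in F23, 6.34 in F24 and 4.43 in F25. All 4 efficient ANG steers were therefore below all 4 inefficient ones, at 5.40 ± 1.54 against 14.7 ± 4.77 CPM (SD, n = 4 each), a 2.72-fold difference between the means. In KC the H-RFI steers had 19.9, 13.9, 8.18 and 16.4 CPM in F1, F7, F8 and F9, and the L-RFI steers had 7.50, 5.95, 9.74 and 19.5 in F10, F11, F14 and F16. The KC groups overlapped, with F16 of the L-RFI group the second highest of the breed. In CHAR the H-RFI steers had 4.58, 9.01 and 13.7 CPM in F36, F43 and F48, while the L-RFI steers had 7.18, 17.1 and 1.41 in F33, F46 and F47. The L-RFI group of CHAR held both the lowest and the highest BMP7 level of that breed.

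DLK1 was a low gene, with 559 counts over all steers, of which 257 came from the ANG L-RFI steer F18. In ANG H-RFI steers 2, 7, 13 and 29 counts were obtained in F20, F21, F28 and F32, which is 0.253, 0.777, 1.33 and 2.79 CPM. In ANG L-RFI steers 257, 15, 49 and 6 counts were obtained in F18, F23, F24 and F25, which is 23.8, 1.79, 5.86 and 0.682 CPM. The ANG groups overlapped, since F25 of the efficient group was below 3 of the 4 inefficient steers. In KC H-RFI steers the counts were 9, 6, 1 and 9 in F1, F7, F8 and F9, or 0.864, 0.524, 0.0929 and 0.724 CPM. In KC L-RFI steers they were 40, 11, 36 and 24 in F10, F11, F14 and F16, or 4.41, 1.04, 4.33 and 2.78 CPM. Every efficient KC steer was above every inefficient one, at 3.14 ± 1.59 against 0.551 ± 0.336 CPM (SD, n = 4 each). The nearest steers of the 2 groups were F11 and F1, whose exact Poisson 95% intervals of 0.519 to 1.86 CPM and 0.395 to 1.64 CPM overlapped.

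In CHAR the DLK1 counts were 41, 1 and 0 in the H-RFI steers F36, F43 and F48, and 0, 2 and 1 in the L-RFI steers F33, F46 and F47. A single steer, F36, thus held 41 of the 45 counts of the breed, at 3.35 CPM. The other 5 CHAR steers had 4 counts together and all lay at or below the floor of 3 counts, so that no fold between the CHAR RFI groups is given.

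ACVR1C was measured in every steer, with 64 to 388 counts. In KC H-RFI steers its level was 6.72, 9.78, 8.55 and 8.36 CPM in F1, F7, F8 and F9. In KC L-RFI steers it was 21.8, 9.83, 15.3 and 20.7 in F10, F11, F14 and F16. The efficient KC group was higher in mean, at 16.9 ± 5.51 against 8.35 ± 1.26 CPM (SD, n = 4 each), a 2.02-fold difference, but its lowest steer F11 was only just above F7, the highest of the inefficient group. In ANG the H-RFI steers had 31.1, 13.1, 14.1 and 10.7 CPM in F20, F21, F28 and F32, and the L-RFI steers had 6.19, 7.64, 28.5 and 16.9 in F18, F23, F24 and F25. In CHAR the levels were 31.7, 23.4 and 14.9 CPM in the H-RFI steers F36, F43 and F48, and 14.7, 27.6 and 17.99 in the L-RFI steers F33, F46 and F47. The RFI groups overlapped in ANG, and in CHAR only F36 stood above all steers of the other group.

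**Figure D1:**
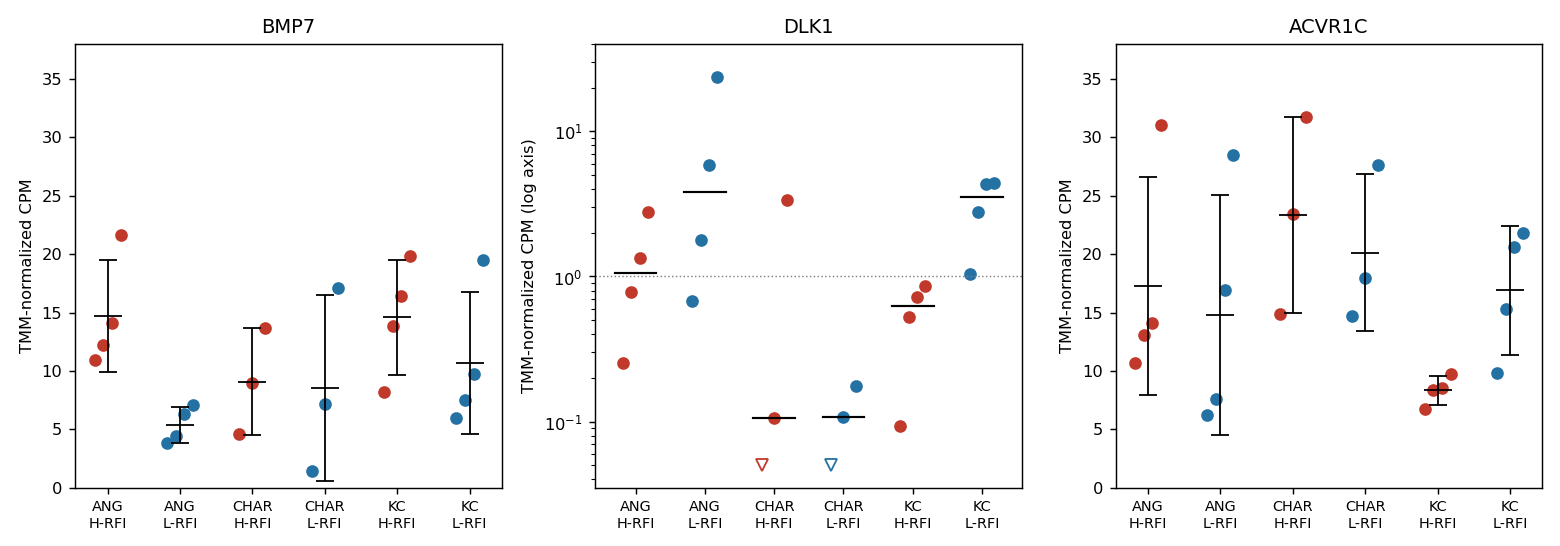
Level of BMP7, DLK1 and ACVR1C in each of the 22 steers, in TMM-normalized CPM, by breed and RFI group (red, H-RFI; blue, L-RFI). Bars are the mean ± SD for BMP7 and ACVR1C; the DLK1 axis is logarithmic, with the group median as a line, 1 CPM dotted and steers with 0 counts as open triangles placed at the bottom. The groups do not overlap for BMP7 in ANG and for DLK1 and ACVR1C in KC, and the high DLK1 steers F18 and F36 stand apart in their breeds. Of all genes tested, 1.57% were lower in L-RFI without overlap in ANG and 5.11% higher in L-RFI without overlap in KC. The KC groups overlap for ACVR1C when CPM is taken without TMM.

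In each breed the L-RFI steers were set against the H-RFI steers with the quasi-likelihood test of edgeR, where a gene was called at an FDR below 0.1 and an absolute log2 fold change (log2FC) of at least 1. None of the members was called in any breed. For BMP7 in ANG the log2FC was -1.45 (standard error 0.28, 95% interval -2.07 to -0.84), with an unadjusted p of 0.000377 and an adjusted p of 0.513 over 13613 genes. The test called 0% of all genes in ANG (686 genes had an unadjusted p under 0.05, while DESeq2 called 32 and edgeR's exact test 46), and 3.14% of genes were lower in L-RFI at an unadjusted p under 0.05. Groups without overlap and lower in L-RFI were found for 1.57% of the ANG genes. In KC the log2FC of BMP7 was -0.46 (95% interval -1.28 to 0.37, adjusted p = 0.548), and in CHAR it was -0.06 (95% interval -1.75 to 1.62, adjusted p = 0.994), where 0% of genes were called (636 had an unadjusted p under 0.05, DESeq2 called 22 and the exact test 39). The CHAR interval includes the ANG value, so that a difference of that size could not be told from none in CHAR.

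For DLK1 in KC the log2FC was 2.47 (standard error 0.58, 95% interval 1.19 to 3.75), with an unadjusted p of 0.00150 and an adjusted p of 0.126. DLK1 entered this test through the L-RFI group alone, because the 4 of 8 KC steers above 1 CPM were all efficient steers. The quasi-likelihood test called 0.00729% of all genes in KC, 8.9% were higher in L-RFI at an unadjusted p under 0.05, and 5.11% were higher in L-RFI without overlap between the groups. In ANG the log2FC of DLK1 was 2.59 (standard error 0.99, 95% interval 0.37 to 4.81), with an adjusted p of 0.940. The value was 1.06 without F18 and 3.30 without F32. In CHAR 1 of 6 steers was above 1 CPM, so that DLK1 was not tested there.

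For ACVR1C in KC the log2FC was 1.01 (standard error 0.24, 95% interval 0.47 to 1.55), with an unadjusted p of 0.00190 and an adjusted p of 0.130. Without F11 it was 1.21 with an adjusted p of 0.0589, which is past both cut-offs, and without any other KC steer it lay between 0.88 and 1.09. The share of all genes called without F11 was not taken, so this call has no background to be set against. F11 was also the steer with the high TTN and NEB, and whether this bears on its ACVR1C level was not tested. In ANG the log2FC was -0.22 (95% interval -1.32 to 0.88, adjusted p = 0.996), and in CHAR it was -0.22 (95% interval -0.95 to 0.51, adjusted p = 0.981). The ANG value turned to 0.22 without F20 and to 0.04 without F18.

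Calls depended on the test. edgeR's exact test and DESeq2 both called BMP7 in ANG (adjusted p = 0.00196 and 0.00213), DLK1 in KC (adjusted p = 0.00203 and 0.00623) and ACVR1C in KC (adjusted p = 0.0171 and 0.0124), with log2FC values of -1.45, 2.47 to 2.51 and 1.01 to 1.02. In these tests too DLK1 passed the filter in KC through the L-RFI steers alone. The exact test called 0.338% of the ANG genes, 0.284% of the CHAR genes and 1.29% of the KC genes. With DESeq2, 173 of the 13715 genes tested within KC were called, 77 of them higher in L-RFI steers. The members stand on the study's own lists of genes that differ between RFI groups in these steers (BMP7 for ANG, DLK1 and ACVR1C for KC), so these calls are not independent evidence of their direction.

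**Figure D2:**
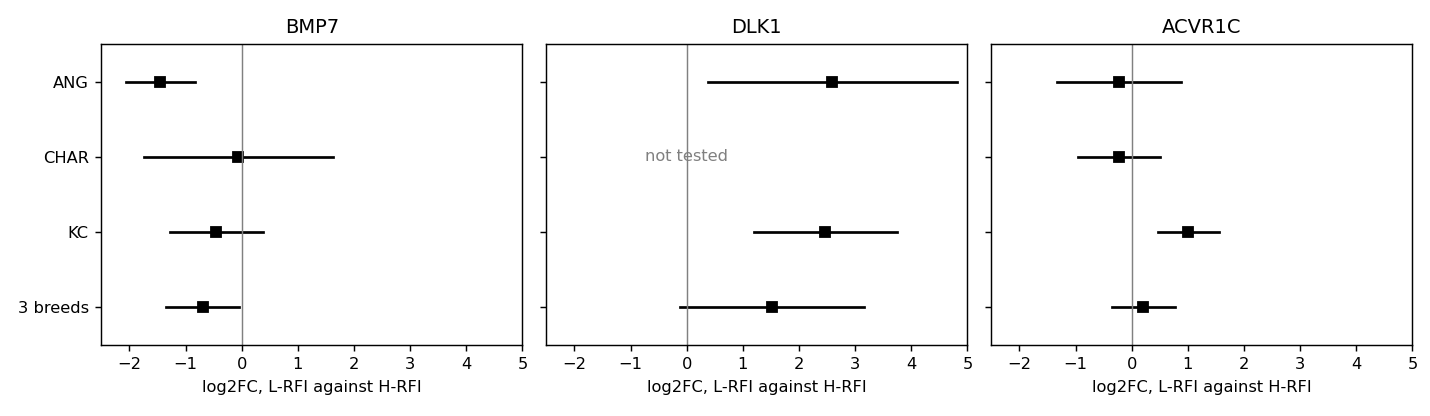
Log2 fold change of L-RFI against H-RFI steers for each member within ANG, CHAR and KC and over the 3 breeds (squares), with the 95% interval of edgeR's quasi-likelihood fit (lines). The intervals of BMP7 in ANG, DLK1 in ANG and KC, ACVR1C in KC and BMP7 over the 3 breeds leave out 0, but none was called after adjustment. An interval that leaves out 0 matches an unadjusted p under 0.05 in that test. This held for 686 of 13613 genes in ANG, 2504 of 13725 in KC and 2105 of 14048 over the 3 breeds. DLK1 was not tested in CHAR.

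Single genes were also tested by exact permutation of log2(CPM + 0.5), 2-sided, for which 4 steers against 4 cannot give a p below 0.0286 and 3 against 3 cannot go below 0.1. BMP7 in ANG, DLK1 in KC and ACVR1C in KC each reached the smallest p of 0.0286, with 0.0857 after adjustment over the 9 tests. These are the gene and breed pairs of the study's own lists from the same steers, and adjustment over 9 tests does not cover that choice. The p-values are therefore descriptions. Of all genes tested, 1.57% were lower in L-RFI without overlap in ANG and 5.11% higher in L-RFI without overlap in KC. The mean difference, L-RFI minus H-RFI, was -1.36 for BMP7 in ANG, 1.72 for DLK1 in KC and 0.92 for ACVR1C in KC on this log2 scale, which understates the change of a low gene. For ACVR1C the separation of the KC groups was lost when CPM was taken on the total count without TMM (exact permutation p = 0.0571). DLK1 in ANG differed by 1.54 (exact permutation p = 0.2). The p-values of the other 5 tests lay between 0.314 and 0.9.

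Over the 3 breeds, with breed as a term, BMP7 had a log2FC of -0.69 (95% interval -1.35 to -0.04, adjusted p = 0.309), DLK1 1.52 (95% interval -0.11 to 3.16, adjusted p = 0.369) and ACVR1C 0.21 (95% interval -0.35 to 0.77, adjusted p = 0.761). No member was called, and the quasi-likelihood test called 0% of all genes (2105 had an unadjusted p under 0.05, and DESeq2 called 40). Permuting the RFI labels within breeds gave an exact p of 0.0245 for BMP7, 0.0873 for DLK1 and 0.575 for ACVR1C, and 0.0735, 0.131 and 0.575 after adjustment over the 3 genes. Adjustment over 3 genes does not cover that they stand on the study's lists from the same steers. The log2FC of DLK1 moved to 0.80 without F18 and to 2.49 without F36.

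**Figure D3:**
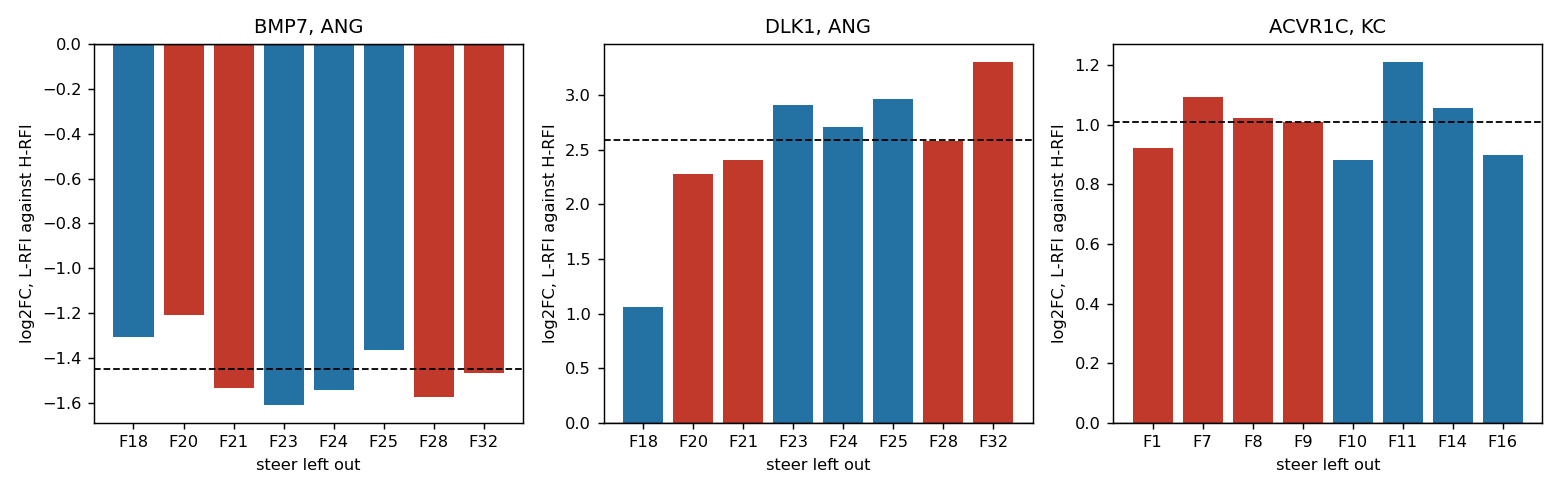
Log2 fold change of L-RFI against H-RFI steers with each steer left out in turn, for BMP7 in ANG, DLK1 in ANG and ACVR1C in KC (bars; red, an H-RFI steer was left out; blue, an L-RFI steer). The dashed line is the value with all steers of the breed. BMP7 stays between -1.61 and -1.21 and ACVR1C between 0.88 and 1.21, while DLK1 drops to 1.06 without F18.

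Whether the RFI difference itself varied among breeds was tested as an interaction over all 22 steers, which called 0.00712% of genes. The adjusted p was 0.746 for BMP7, 0.667 for DLK1 and 0.714 for ACVR1C. The RFI difference of ACVR1C in KC exceeded that in ANG by 1.24 (95% interval 0.01 to 2.46, adjusted p = 0.546). That of BMP7 in CHAR exceeded the one in ANG by 1.39 (95% interval -0.22 to 2.995, adjusted p = 0.990). For DLK1 the unadjusted interaction p was 0.0101 with all steers and 0.891 without F36. The pattern of a member past 1 test in 1 breed was therefore not shown to differ from the other breeds.

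Breeds were compared with RFI group as a term. DLK1 was lowest in CHAR, at a median of 0.107 CPM against 0.952 in KC and 1.56 in ANG, but the log2FC of CHAR against ANG was -2.06 (95% interval -4.23 to 0.10, adjusted p = 0.393) and of CHAR against KC -0.75 (95% interval -2.95 to 1.45, adjusted p = 0.684). The steer F36 decided these calls. Without it CHAR was past both cut-offs against ANG (adjusted p = 0.0465) and against KC (adjusted p = 0.0213), but F36 was the CHAR steer with the high value and the 5 others held 4 counts together, all at or below the floor, so the fitted size then depends on the prior count and is no measure of the difference. The background was 0.185% of genes called between CHAR and ANG, 0.406% between KC and ANG and 1.75% between CHAR and KC, with all steers. Exact permutation over the breeds with all steers gave p = 0.0313 for CHAR against ANG and p = 0.0759 for CHAR against KC, and 0.141 and 0.228 after adjustment over 9 tests. KC against ANG differed by -1.31 (95% interval -2.99 to 0.37, adjusted p = 0.373).

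ACVR1C was highest in CHAR, at 21.7 ± 7.03 CPM (SD, n = 6), then ANG at 16.03 ± 9.18 and KC at 12.6 ± 5.88 (SD, n = 8 each). CHAR exceeded KC by a log2FC of 0.84 (95% interval 0.14 to 1.54, adjusted p = 0.117). For the neighbours in this order the 95% intervals included 0, so that no difference was shown. The log2FC of CHAR against ANG was 0.45 (95% interval -0.24 to 1.14, adjusted p = 0.591). That of KC against ANG was -0.39 (95% interval -1.05 to 0.28, adjusted p = 0.516). Among H-RFI steers alone CHAR exceeded KC by 1.49 (adjusted p = 0.0515), past both cut-offs, and among L-RFI steers alone by 0.26 (adjusted p = 0.867). The share of all genes called among H-RFI steers alone was not taken. Tested directly, the RFI difference of ACVR1C in KC exceeded that in CHAR by 1.24 (95% interval -0.07 to 2.54, adjusted p = 0.744). The breed difference was therefore not shown to depend on the RFI group. The exact permutation p for CHAR against KC was 0.0200, or 0.141 after adjustment.

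BMP7 had 12.6 ± 5.53 CPM in KC, 10.1 ± 5.96 in ANG (SD, n = 8 each) and 8.84 ± 5.81 in CHAR (SD, n = 6). No difference was shown for any of the 3 breed pairs, whose 95% intervals all included 0. The log2FC was -0.05 for CHAR against ANG, 0.42 for KC against ANG and -0.47 for CHAR against KC (adjusted p = 0.975, 0.540 and 0.471). The 95% interval of CHAR against KC ran from -1.29 to 0.35, so that a difference was not found absent.

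**Figure D4:**
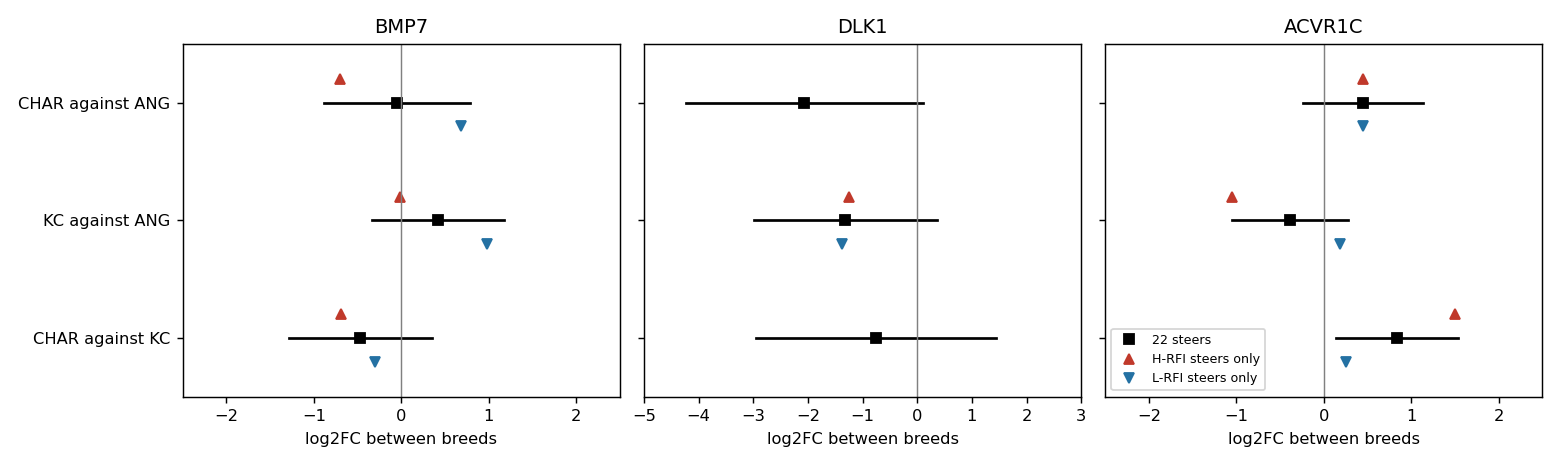
Log2 fold change between breeds for each member, with RFI group as a term and all 22 steers (squares, with 95% intervals), in H-RFI steers only (red triangles) and in L-RFI steers only (blue triangles, both left out for DLK1 where CHAR is compared). CHAR stands 1.49 above KC for ACVR1C among H-RFI steers and 0.26 above it among L-RFI steers, but the interaction of breed and RFI group was not called for ACVR1C.

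All members varied more between steers than the median gene. The biological coefficient of variation left after breed and RFI group was 0.48 for BMP7, 0.97 for DLK1 and 0.39 for ACVR1C, against a median of 0.18 over all genes tested. Within breeds BMP7 varied least in ANG (0.26) and most in CHAR (0.62), and ACVR1C varied least in KC (0.24) and most in ANG (0.48).

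No relation between the members was detected across the 22 steers. On log2(CPM + 0.5), BMP7 and DLK1 had r = -0.20 and rho = -0.20 (permutation p = 0.366 and 0.374), BMP7 and ACVR1C had r = -0.02 and rho = -0.02 (p = 0.934 and 0.935), and DLK1 and ACVR1C had r = -0.12 and rho = -0.02 (p = 0.610 and 0.914). All adjusted p-values over the 3 relations were at least 0.915. With the 2 steers most distant from the first gene's median left out, r was -0.25, -0.12 and 0.02. After centring within breed and RFI group r was -0.16, 0.20 and -0.09.

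Within the 11 H-RFI and the 11 L-RFI steers the members were also set against RFIfat itself, as 6 relations. In L-RFI steers BMP7 had r = -0.36 and rho = -0.74 (permutation p = 0.273 and 0.0124, adjusted p = 0.709 and 0.0742), and r was -0.49 without the 2 steers farthest in RFIfat. These values pool 3 breeds, and with both measures centred within breed and steers permuted within breed BMP7 in L-RFI steers had r = -0.18 and rho = -0.33 (permutation p = 0.616 and 0.346, adjusted p = 0.816 and 0.674), so that the relation was not found within breeds. ACVR1C in L-RFI steers had r = -0.35 and rho = -0.44 (permutation p = 0.289 and 0.180), r was -0.56 without the 2 farthest, and the values centred within breed were r = -0.40 and rho = -0.49 (permutation p = 0.207 and 0.146). The adjusted p-values of the 5 relations other than that of BMP7 in L-RFI steers were at least 0.541 over the pooled steers and at least 0.674 when centred within breed.

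The genes whose levels across the 22 steers were most like BMP7, by Spearman's rho over 14047 other genes, included ITGA11 (rho = 0.91), a collagen-binding integrin subunit of fibroblasts, ROR1 (rho = 0.88), a receptor for Wnt ligands, and HTRA3 (rho = 0.87), a secreted serine protease that binds TGF-beta family proteins. RASSF5 and TIAM1, which act on small GTPases, followed at 0.86 each. The median rho over all genes was -0.01. These 5 genes were chosen for this likeness and stand, like BMP7, on the study's ANG list, so the values are descriptions, and 5 of the 10 most alike genes have a symbol here. By breed, BMP7 with ITGA11 had rho = 0.93 over the 8 ANG, 0.89 over the 6 CHAR and 0.98 over the 8 KC steers. High values within breeds follow in part from the choice of these genes over the same steers. With HTRA3 the values were 0.98, 0.77 and 0.95, and with ROR1 0.86, 0.89 and 0.93. After centring within breed and RFI group, BMP7 had r = 0.78 with ITGA11, 0.82 with ROR1 and 0.79 with HTRA3.

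**Figure D5:**
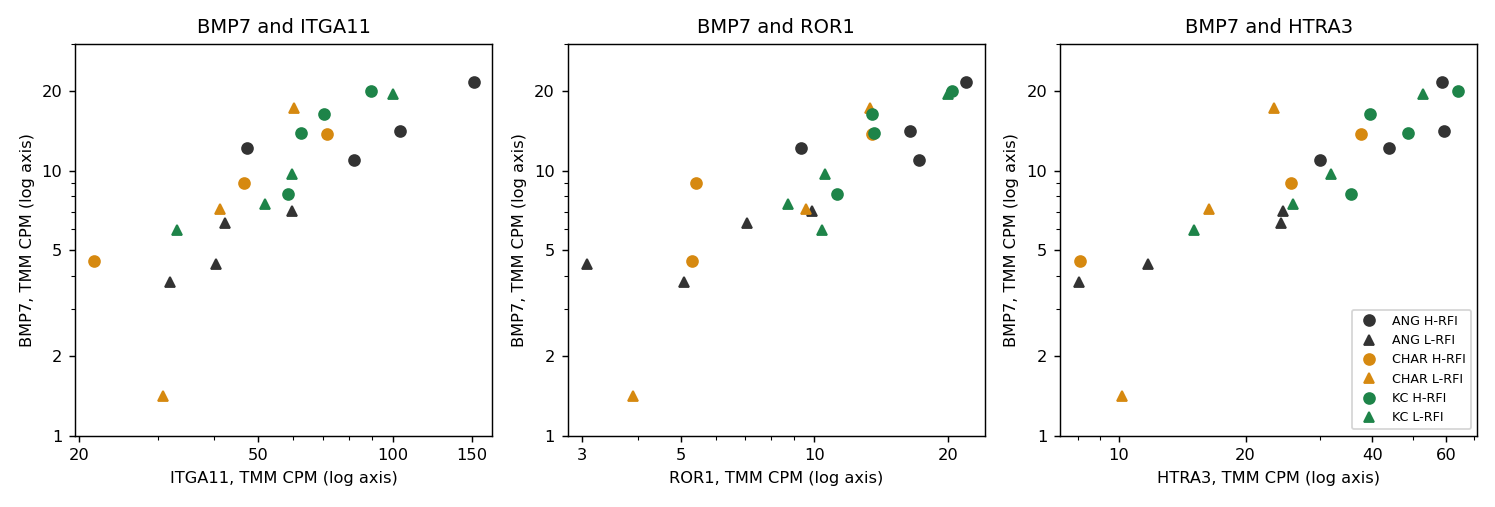
BMP7 against ITGA11, ROR1 and HTRA3 in TMM-normalized CPM, both axes logarithmic, with 1 point per steer (colour, breed; circles, H-RFI; triangles, L-RFI). BMP7 is higher in steers with more of each gene in all 3 breeds, and the CHAR L-RFI steer F47, at 1.41 CPM of BMP7, has the lowest BMP7 of each panel. These genes were chosen for their likeness to BMP7 over the same steers.

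None of the 10 genes most like DLK1 or ACVR1C has a symbol here. The most alike gene with a symbol was SCN3A for DLK1 (rho = 0.64, place 12), a neuronal sodium channel subunit, and ASGR1 for ACVR1C (rho = 0.77, place 25), a subunit of the asialoglycoprotein receptor. The rho of DLK1 rests on counts of 0 to 3 in 7 steers.

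Of the 215 genes listed for the BMP, activin, Notch and adipogenesis pathways and for cell types, 17 have a symbol that ties them to a row of the table, among them no BMP receptor, Smad, activin ligand or Notch receptor. The pathway around the members can therefore be described only in part, through 26 named genes set out by role after the values were seen. All come from the study's own lists of genes that differ between RFI groups in these steers, so their direction in the breed of their list follows from that choice, and the values below are descriptions from which nothing is read. On the BMP and activin side outside the cell, 3 genes of the KC list were SOST, FSTL3 and SCUBE3. In KC SOST, a secreted antagonist of Wnt and BMP signalling, had a log2FC of -1.54 (adjusted p = 0.126), FSTL3, which binds and blocks activins, -1.15 (adjusted p = 0.126), and SCUBE3, a secreted matrix protein, -1.21 (adjusted p = 0.137). In ANG, FSTL3 had -0.79 (adjusted p = 0.976) and HTRA3, of the ANG list, -1.49 (adjusted p = 0.722).

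The matrix, progenitor and Wnt pathway genes named here stand on the ANG list, as BMP7 does. In ANG L-RFI against H-RFI steers PI16, a marker of fibroblast-like progenitors, had a log2FC of -1.21 (adjusted p = 0.827), ITGA11 -1.15 (adjusted p = 0.748) and HAS2, a hyaluronan synthase, -1.09 (adjusted p = 0.748). The ligand WNT2 had -1.60 and the secreted modulator SFRP4 -1.08 (adjusted p = 0.722 and 0.769).

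Of 4 genes of the fat cell, SREBF1, METRNL and CIDEA are on the KC list and COX8B on the CHAR list. SREBF1, a regulator of lipid synthesis, had a log2FC of -1.14 in KC L-RFI steers (adjusted p = 0.126), METRNL, a hormone secreted by fat, -1.27 (adjusted p = 0.127) and CIDEA, a lipid droplet protein known from brown fat, -1.01 (adjusted p = 0.146). COX8B, a mitochondrial cytochrome c oxidase subunit, had -0.07 in KC (adjusted p = 0.971). Over all 22 steers and after centring within breed and RFI group, ACVR1C was lower where CIDEA was higher (r = -0.78, rho = -0.71, permutation p = 0.00141 and 0.00360). Over the 78 relations of the members with the 26 genes, the adjusted p was 0.0220 for r and 0.0562 for rho, and r was -0.69 without the 2 steers farthest in CIDEA. Both adjusted values are descriptions only, because the 26 genes were set out after the values were seen. The 78 relations also hold BMP7 with ITGA11, ROR1 and HTRA3, the named genes most like BMP7 in these same steers. Their small p-values lower the adjusted p of the other relations.

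Markers of other cell types were set beside these results. TTN and NEB had log2FC values of 2.37 and 4.26 in KC, and both were highest in F11, which had the lowest DLK1 and ACVR1C of its group. After centring within breed and RFI group, ACVR1C had r = -0.53 and rho = -0.60 with ACTG2 (permutation p = 0.0260 and 0.00924, adjusted p = 0.203 and 0.106 over the 78 relations), and r = -0.48 and rho = -0.44 with TTN (adjusted p = 0.203 and 0.343). BMP7 had r = 0.51 and rho = 0.59 with ACTA2 (permutation p = 0.0585 and 0.0171, adjusted p = 0.415 and 0.167). DLK1 had r = -0.19 and rho = -0.13 with TTN (adjusted p = 0.844 and 0.927). The part of these cells in the members' levels was not tested.

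The 6 libraries with few reads on more than 1 gene touched the members as follows. With a share below 0.6% as a yes or no term, the log2FC was -1.31 for BMP7 in ANG, 2.10 for DLK1 in ANG, 2.28 for DLK1 in KC and 0.96 for ACVR1C in KC, none past the cut-offs. Without those libraries BMP7 in ANG had -1.25 (3 H-RFI and 2 L-RFI steers), DLK1 in ANG 1.52 and ACVR1C in KC 0.88 (3 and 2). DLK1 in KC then failed the filter and has no value. Of the libraries left out, F8 held the lowest DLK1 count of KC H-RFI steers, at 1. F10 and F14 held the highest of KC L-RFI steers, at 40 and 36, so the DLK1 difference in KC leans on these libraries. In KC the share of reads counted on genes was 39.5 to 41.4% in H-RFI and 37.2 to 38.5% in L-RFI steers, which did not overlap, and its part in the KC results was not tested.

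BMP7 overlaps the microRNA gene MIR2307 in the RefSeq annotation of a later assembly, ARS-UCD2.0, while DLK1 and ACVR1C overlap no other annotated gene there. DLK1 lies between BEGAIN and RTL1 with MEG3 nearby, which belong to the same imprinted region, and ACVR1C lies next to ACVR1, another receptor of the family.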

How the data were processed

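RNA-Seq of subcutaneous backfat from 22 steers was used. The authors removed ribosomal RNA, made stranded libraries, aligned paired reads with TopHat2 2.0.9 (UMD3.1 build), sorted them with SAMtools 1.1 and deposited raw counts per gene from HTSeq 0.6.1, without normalization. The strand setting and annotation version are not given in the sources used here. Groups were taken from the labels, which number each steer separately. All 22 columns were used, and the 5 summary lines that name no gene were left out.

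TMM factors and edgeR's quasi-likelihood test (R 4.3.3, edgeR 4.0.16, limma 3.58.1) were applied to genes with CPM above 1 on the total count in 50% or more of a breed's steers, and for fits over breeds in at least 1 breed. P-values were adjusted by Benjamini-Hochberg over all genes tested. Levels are CPM on TMM-scaled totals over 22 steers. Permutation tests and correlations used log2(CPM + 0.5), with 100000 resamples for correlations, run in scipy 1.17.1 and numpy 2.4.6 under python 3.11.15 (tables, pandas 2.3.3; plots, matplotlib 3.10.9). For centred relations the steers were permuted within breed and RFI group. Alternatives were DESeq2 1.42.0, edgeR's exact test, RLE factors, no filter, 1 fit of 22 steers, RFIfat as a regressor, each RFI group alone and each steer left out. Scripts were tested on simulated data. Both results on the share of ambiguous reads, the relations with RFIfat centred within breed, and the 26 genes set out by role, were chosen after seeing the data.

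The members, lists and tests were chosen with earlier results of these data known. The named genes are the members, the listed genes with a symbol and the most alike genes by Spearman's rho. Symbols come from the study's supplementary list of 257 genes, of which 242 have one. Sequences, coordinates and fatty acid profiles were not used here, and some genes are not reported here by name.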

Additional observations from a re-analysis of the deposited data

Results flagged for a closer look

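The groups examined were 21, of 4 to 8 steers (each member in 4 RFI groups of 4 and in 3 breeds). In 3 of them a steer's gap to its nearest neighbour took a larger part of the group's range than Dixon's 95% limit allows. That limit marks about 1 in 20 independent groups of normally distributed values. The levels here were CPM without a log and each RFI group lies within its breed, so that rate does not apply. DLK1 in ANG was flagged for F18, at 23.8 CPM against 5.86 in the next steer, a gap of 0.762 of the range. DLK1 in CHAR was flagged for F36, at 3.35 CPM against 0.175 in the next steer, a gap of 0.948 of the range. ACVR1C in ANG H-RFI steers was flagged for F20, at 31.1 CPM against 14.1 in the next steer, a gap of 0.831 of the range. F20 also held the highest BMP7 of all 22 steers, at 21.6 CPM, and F18 the lowest BMP7 and the lowest ACVR1C of ANG, at 3.79 and 6.19 CPM. What sets these steers apart was not tested.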

How the results depend on the processing

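Within breeds the calls of the members changed with the test. BMP7 in ANG was called by DESeq2 (log2FC -1.45) and edgeR's exact test (-1.45), DLK1 in KC by both (2.51 and 2.47), and ACVR1C in KC by both (1.02 and 1.01). The cause was not tested. RLE factors, no filter, RFIfat as a regressor and 1 fit of all 22 steers left no member called within a breed. Among H-RFI steers only, ACVR1C of CHAR against KC was 1.49 and past the cut-offs, BMP7 of KC against ANG turned to -0.0156 and DLK1 of CHAR against KC to 1.13. The share of all genes past the cut-offs among H-RFI steers was not taken. The DLK1 value rests on F36, since the CHAR H-RFI counts were 41 in F36, 1 in F43 and 0 in F48. Among L-RFI steers only, BMP7 of CHAR against ANG turned to 0.68 and ACVR1C of KC against ANG to 0.19.

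With each steer left out in turn, log2FC ran from -1.61 to -1.21 for BMP7 in ANG, -1.04 to 0.43 in CHAR and -0.92 to -0.24 in KC. For ACVR1C it ran from -0.76 to 0.22 in ANG, -0.52 to 0.0726 in CHAR and 0.88 to 1.21 in KC. For DLK1 it ran from 1.06 to 3.30 in ANG and from 2.13 to 2.74 in the 4 KC fits without an H-RFI steer, while without any L-RFI steer DLK1 failed the filter. For CHAR against ANG it ran from -0.52 to 0.16 for BMP7 and from -5.86 to -1.31 for DLK1, and for CHAR against KC from -4.54 to -0.26 for DLK1, where -5.86 and -4.54, both without F36, depend on the prior count and are no bounds. The interaction was not called in any of these fits.

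For ACVR1C in KC the mean difference on CPM of the total count was 0.92 with an exact permutation p of 0.0571. On that scale the adjusted permutation p moved from 0.0857 to 0.129 for BMP7 in ANG and DLK1 in KC and to 0.171 for ACVR1C in KC. The r of BMP7 with ACVR1C turned to 0.20 when centred, and without the 2 farthest steers r turned to 0.0212 for DLK1 with ACVR1C, to -0.00836 for RFIfat with BMP7 in H-RFI steers and to 0.26 for RFIfat with DLK1 in L-RFI steers. Centred within breed, r with RFIfat in H-RFI steers turned to -0.16 for BMP7 and to 0.0657 for ACVR1C. No paired analysis was possible because the labels number every steer separately. Of the 6 CHAR steers, 5 lie at or below the floor of DLK1.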
